A study of Mus musculus with 22 samples.

Results

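Levels of 5-methylcytosine (5mC) were compared between cerebellum and olfactory bulb of the mouse in bins of 100 kb along the autosomes. The compared members were the autosomal bins with a level above 0 and below 1 in each of the 4 oxBS-seq libraries of these tissues, which kept 24015 of 24618 autosomal bins and of 26327 bins in all. Among the 603 autosomal bins left out, 587 were at 0 in all 4 libraries, and 586 of the 603 held no known base of the genome assembly. The levels of the members ran from 0.0357 to 0.976 over the libraries, whereas the bins left out were at exactly 0 or 1 in at least 1 library. A member held a median of 776 CpG sites, with a range from 3 to 4072.

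The study mapped 5mC and 5-hydroxymethylcytosine (5hmC) in cerebellum, cortex and olfactory bulb. Each library came from a tissue of C57BL/6 mice at an age of 8 weeks, with no treatment and no genetic change named in the labels, and the mice were female by the methods of the study. Cerebellum and olfactory bulb were taken as whole tissues, so a level is an average over all cell types in them. There were 2 oxBS-seq libraries of cerebellum, 2 of olfactory bulb and 3 of cortex, and the labels place the replicates of a tissue in independent mice although they call them technical. Expression was not used here, so the tissue labels could not be checked against marker RNAs, and a different share of a cell type and a different level within it cannot be told apart in these bulk samples.

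In the mammalian genome, methylation is found mostly at the cytosine of a CpG dinucleotide, where it is set by DNA methyltransferases. TET enzymes oxidize 5mC to 5hmC, which is abundant in neurons and in particular over the bodies of the genes that they transcribe. Ordinary bisulfite sequencing reads both marks as methylated. In oxBS-seq a prior oxidation of 5hmC leaves 5mC as the only mark read as methylated, and in TAB-seq 5hmC is the only mark read as such. Cerebellum is dominated by granule neurons, small glutamatergic cells that arise from the rhombic lip of the hindbrain. Olfactory bulb is dominated by GABAergic interneurons, granule and periglomerular cells that are born in the forebrain and continue to be added in the adult.

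Zeb2 and Meis2 held the 2 bins that gained most 5mC from olfactory bulb to cerebellum, and Chd7 and Cnksr3 the 2 that lost most. To show the kind of sequence in which these levels were read, the stretch of 150 bases with the most CpG sites outside exons and masked repeats was taken from each of these bins. Each is given on the plus strand of GRCm38, 5′ to 3′, from the RefSeq copy of the assembly, with every CpG in capitals. All 4 lie in introns. They hold 8, 8, 10 and 8 CpG sites, respectively, against a median of 1, 1, 2 and 1 over all stretches of that length in the same bin. The deposited values give no level for such a stretch, only for the whole bin.
Zeb2, chr2:45001815-45001964: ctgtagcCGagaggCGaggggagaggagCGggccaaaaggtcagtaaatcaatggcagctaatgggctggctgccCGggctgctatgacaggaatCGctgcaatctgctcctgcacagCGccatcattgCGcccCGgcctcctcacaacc
Meis2, chr2:115961750-115961899: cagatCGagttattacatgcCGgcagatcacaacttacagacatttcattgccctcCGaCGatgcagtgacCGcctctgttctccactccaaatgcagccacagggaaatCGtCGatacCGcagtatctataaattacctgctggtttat
Chd7, chr4:8789039-8789188: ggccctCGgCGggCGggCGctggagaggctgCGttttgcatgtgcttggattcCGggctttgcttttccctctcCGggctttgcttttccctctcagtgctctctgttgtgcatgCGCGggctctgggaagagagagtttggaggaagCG
Cnksr3, chr10:7178652-7178801: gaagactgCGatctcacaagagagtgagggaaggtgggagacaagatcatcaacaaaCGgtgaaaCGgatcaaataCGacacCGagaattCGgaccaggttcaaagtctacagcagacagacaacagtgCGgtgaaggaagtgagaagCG

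Over all members, 5mC was slightly higher in cerebellum. The mean level was 0.740 and 0.724 in the cerebellum libraries and 0.707 and 0.703 in the olfactory bulb libraries. Both cerebellum libraries thus lay above both olfactory bulb libraries, at 0.732 ± 0.0115 (SD, n = 2) against 0.705 ± 0.00295 (SD, n = 2), and the cerebellum libraries differed from each other by 0.0163. The difference of 0.0275 gave p = 0.333 in a two-sided exact permutation test, the smallest value that 2 libraries against 2 allow, so this design cannot test the genome mean. Cortex was lowest, at 0.674 ± 0.0148 (SD, n = 3).

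The bins of a tissue were ordered alike in its replicates and less so between tissues. Pearson's r across the bins was 0.984 between the cerebellum libraries, 0.970 between the olfactory bulb libraries and 0.813 to 0.818 between libraries of the 2 tissues. These values describe bins that share libraries and are not independent. The difference between tissue means had an SD of 0.0509 over the bins, while the difference between replicates had an SD of 0.0159 in cerebellum and 0.0217 in olfactory bulb.

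limma was run per bin on log2(level/(1 − level)) with a threshold of 0.05 on the adjusted p-value, and a difference is always cerebellum minus olfactory bulb. Of the 24015 bins, 10381 (43.2%) were higher in cerebellum and 1823 (7.59%) were lower. The standard error was 0.116 on the log2 ratio scale in each bin, so the smallest change that passed was 0.26 and the adjusted p-values of single bins rest on a spread pooled over bins. The median change of all bins was 0.21 on this scale. When each library was centred on its own median, 4649 bins (19.4%) were higher and 5695 (23.7%) lower, so rises no longer outnumbered falls. All of these 4649 bins had also passed as higher without centring, and 1819 of the 1823 lower bins passed as lower with it. Such overlap largely follows from centring itself, which shifts the change of every bin by the same amount.

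Large differences were few and also leaned towards cerebellum. The difference exceeded 0.1 in 1384 bins as a rise and in 350 as a fall, and it exceeded 0.2 in 132 and 61 bins, respectively. These limits were set around 0, while the median difference was 0.0275, so the lean includes that shift. No counts of large differences are given with centred libraries. From the 5th to the 95th percentile it ran from -0.0509 to 0.104. The most extreme bins lay far outside this range, at 0.481 and -0.394.

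**Figure D1:**
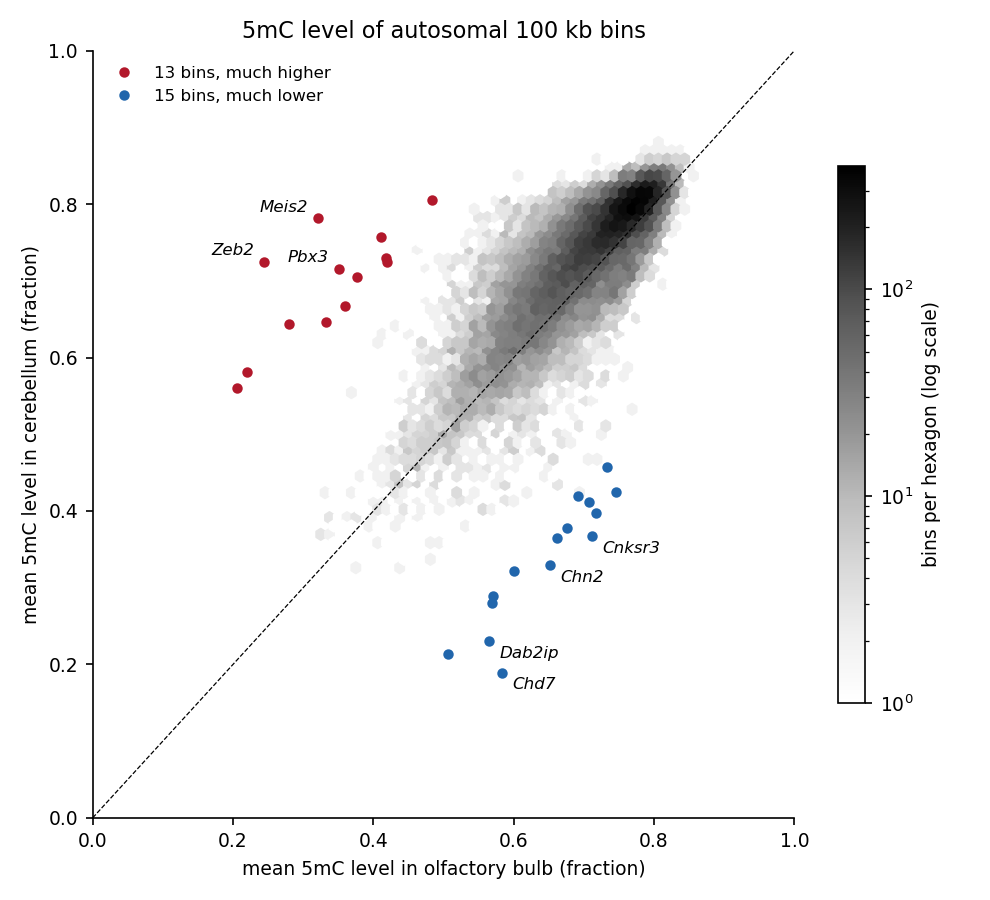
Mean 5mC level (fraction) of 24015 autosomal 100 kb bins in olfactory bulb (x axis) and cerebellum (y axis), with grey shading for the number of bins per hexagon on a log scale. Red and blue points are 13 of the 15 bins that rose most and the 15 that fell most, and they stand away from the cloud along the dashed line of equal levels.

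The 15 bins that rose most were chosen for that size among the 10313 bins (42.9%) that were past the threshold as higher and in which the libraries of the tissues did not overlap, so their values are a description. They lay on 9 chromosomes and rose by 0.305 to 0.481. The transcription factor genes Zeb2, Meis2, Pbx3 and Tshz1 were among the genes in them.

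The largest rise was in Zeb2, which encodes a zinc finger homeobox repressor needed by migrating interneurons and other neural cells. The bin chr2:45000001-45100000 lies wholly inside the gene. Its 5mC level was 0.742 and 0.708 in the cerebellum libraries, 0.252 and 0.237 in the olfactory bulb libraries and 0.341 ± 0.0186 (SD, n = 3) in cortex. Olfactory bulb and cortex were thus both low, with cerebellum apart from them, and the change between the compared tissues was 3.03 ± 0.116 (SE) on the log2 ratio scale (limma, adjusted p = 9.66e-146). The bins beside it differed less, by 0.170 and 0.146. Upstream the difference shrank to 0.0155 at a distance of 500 kb, while downstream all 5 bins were called higher, by 0.0948 to 0.170.

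Meis2 encodes a TALE homeodomain factor of olfactory bulb interneurons, and 2 of its bins were among the 15. In chr2:115900001-116000000, wholly inside the gene, the level was 0.786 and 0.778 in cerebellum and 0.303 and 0.340 in olfactory bulb. In chr2:116000001-116100000, which holds the start of the gene, it was 0.576 and 0.545 against 0.222 and 0.189. Both bins were low in olfactory bulb, without overlap because the bins were chosen so. Cortex stood between the tissues in both, at 0.627 ± 0.0134 and 0.436 ± 0.0200 (SD, n = 3). The changes were 2.92 and 2.31 (SE 0.116) on the log2 ratio scale.

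Pbx3 encodes a homeodomain protein that binds DNA together with MEIS proteins. The bin chr2:34200001-34300000, wholly inside the gene, was at 0.731 and 0.701 in cerebellum against 0.371 and 0.331 in olfactory bulb. Cortex was close to cerebellum, at 0.659 ± 0.0415 (SD, n = 3).

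Tshz1, a teashirt zinc finger factor of bulb interneurons, covers 76.1% of chr18:84000001-84100000. The level there was 0.601 and 0.562 in cerebellum, 0.240 and 0.201 in olfactory bulb and 0.567 ± 0.0100 (SD, n = 3) in cortex. Cortex was therefore at the level of cerebellum, and olfactory bulb alone was low among the 3 tissues.

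Qk, which encodes an RNA-binding protein best known from myelinating glia, rose in chr17:10200001-10300000 from 0.295 and 0.263 in olfactory bulb to 0.650 and 0.638 in cerebellum. Cttnbp2, a regulator of dendritic spines that binds cortactin, rose in chr6:18400001-18500000 from 0.482 and 0.485 to 0.816 and 0.796. Here cortex, at 0.493 ± 0.0152 (SD, n = 3), was level with olfactory bulb. A further 6 bins lay in Ppm1e (a protein phosphatase), Igsf11 (a synaptic adhesion molecule), Zswim6, Fam171b, Pcbp3 (an RNA-binding protein) and Zfp407 (a zinc finger protein), with differences from 0.305 to 0.347. Over the 15 bins the cortex mean was nearer to cerebellum in 9 and nearer to olfactory bulb in 6.

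The 15 bins that fell most, chosen in the same way among 1796 bins (7.48%), lay on 13 chromosomes and fell by 0.272 to 0.394. Cortex was nearer to olfactory bulb in 14 of them and nearer to cerebellum in 1, the bin of Sv2b. Chn2 and Fat2, which are markers of cerebellar granule neurons, were among the genes in them.

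The largest fall was in Chd7, a chromatin remodeller that granule neuron progenitors need. The bin chr4:8700001-8800000 lies wholly inside the gene and was at 0.187 and 0.192 in cerebellum, 0.585 and 0.582 in olfactory bulb and 0.609 ± 0.0162 (SD, n = 3) in cortex. Cerebellum was the low tissue, with replicates that differed by less than 0.01, and the change was -2.58 ± 0.116 (SE) on the log2 ratio scale (limma, adjusted p = 4.27e-106). The next bin downstream fell by 0.269 and the bin upstream fell by 0.0954, and 200 kb away on either side the differences were 0.0414 and 0.0163. Within 200 kb the drop was thus seen in 3 neighbouring bins.

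Cnksr3, a scaffold protein of kinase signalling, was at 0.383 and 0.351 in cerebellum and 0.716 and 0.708 in olfactory bulb in chr10:7100001-7200000. Dab2ip, a Ras GTPase activating protein with a part in neuronal migration, was at 0.237 and 0.223 against 0.573 and 0.556 in chr2:35600001-35700000. Chn2, which encodes the Rac regulator beta-chimaerin and is a marker of cerebellar granule neurons, was at 0.330 and 0.329 against 0.662 and 0.640 in chr6:54100001-54200000. Each of these bins was low in both cerebellum libraries, and the lack of overlap follows from how the bins were chosen.

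Fat2, an atypical cadherin of granule neurons, shares chr11:55300001-55400000 with Sparc and covers 36.6% of it. The level was 0.410 and 0.385 in cerebellum against 0.733 and 0.701 in olfactory bulb. Rbfox3, whose product is the neuronal nuclear antigen NeuN, was at 0.214 in both cerebellum libraries and at 0.506 and 0.507 in olfactory bulb in chr11:118800001-118900000. Cacna1a encodes the pore of the P/Q-type calcium channel, and its bin chr8:84400001-84500000 was at 0.283 and 0.294 against 0.596 and 0.544. Cortex resembled olfactory bulb in each of these bins, at 0.683, 0.525 and 0.529.

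Sv2b, a synaptic vesicle glycoprotein, was at 0.430 and 0.421 in cerebellum, 0.741 and 0.751 in olfactory bulb and 0.534 ± 0.0167 (SD, n = 3) in cortex. Zfp521, a zinc finger factor of neural progenitors, was at 0.472 and 0.442 against 0.731 and 0.734. The other 6 bins lay in Ablim1 (an actin-binding LIM protein), Nedd4l (a ubiquitin ligase), Ndst3 (an enzyme of heparan sulfate synthesis), Zmiz1 (a PIAS-like coregulator), Wscd2 and Mtcl1 (a microtubule crosslinker), with differences from -0.299 to -0.272.

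**Figure D2:**
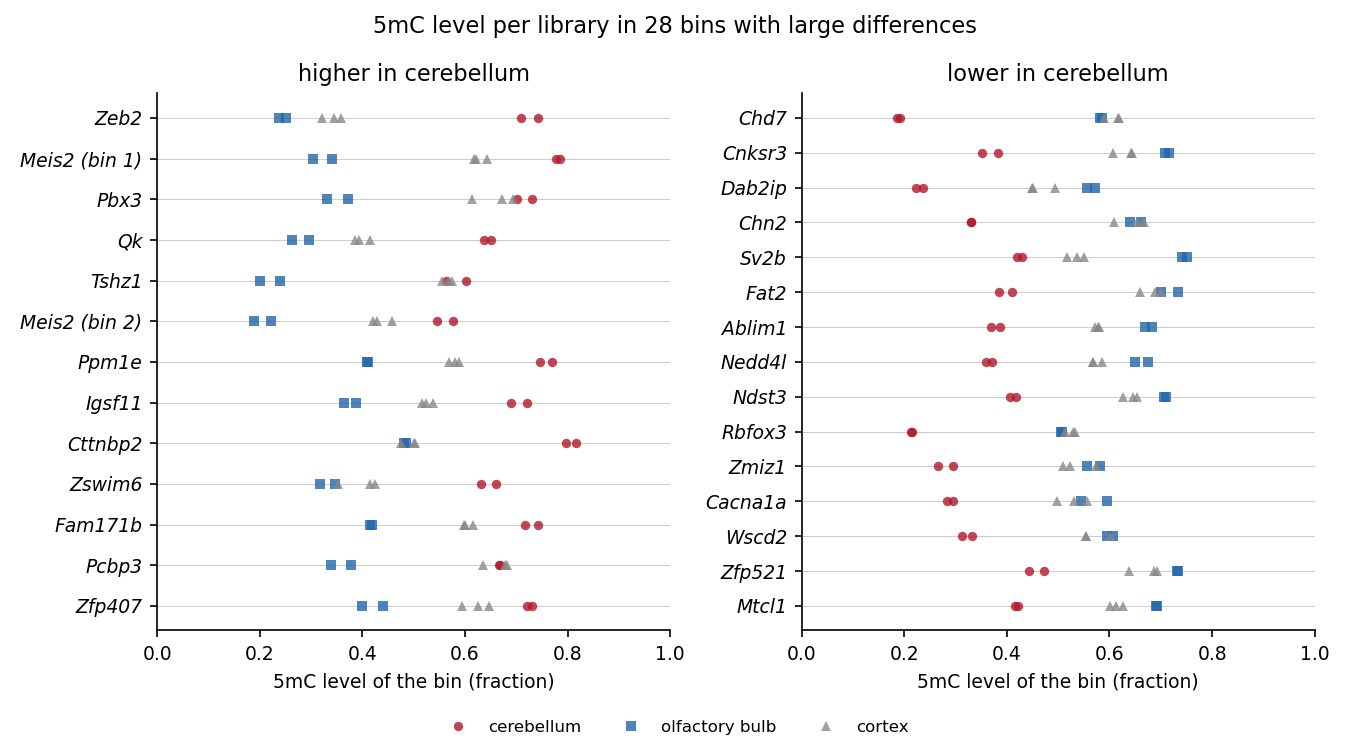
5mC level (fraction, x axis) of 13 of the 15 bins that rose most (left) and the 15 that fell most (right), 1 point per library, with 2 libraries of cerebellum, 2 of olfactory bulb and 3 of cortex. Cerebellum and olfactory bulb points are separated in every row because the bins were chosen so, and cortex points lie near olfactory bulb in 14 of 15 rows on the right.

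The TAB-seq libraries, which the choice of these bins did not use, gave the 5hmC level of the 1 Mb bin around each. Across 2413 autosomal bins of 1 Mb, 5hmC was lower in cerebellum in 2250 (93.2%) and higher in 35 (1.45%). With each TAB-seq library centred on its own median, 982 were lower and 1183 higher, so lower bins no longer outnumbered higher ones. The genome mean was 0.0987 ± 0.00183 in cerebellum against 0.150 ± 0.00440 in olfactory bulb (SD, n = 3). For these means a two-sided exact permutation test gave p = 0.1, the lowest it allows for 3 libraries against 3. Around the 15 rises in 5mC, 5hmC was lower in cerebellum at all 15, a share near that of the genome, with a median difference of -0.0959. This was larger in size than the median of -0.0518 over all 1 Mb bins. Around the 15 falls, 5hmC was lower at 9, higher at 2 and past the threshold in neither direction at 4, with a median difference of -0.0132. With centred libraries, a setting added after seeing the data, 11 of the rises were lower and 2 higher in 5hmC and all 15 falls were higher.

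At Meis2 the 5hmC of the surrounding 1 Mb was 0.0729 ± 0.0016 in cerebellum and 0.239 ± 0.00704 in olfactory bulb, and at Zeb2 it was 0.0724 ± 0.0019 and 0.194 ± 0.00704 (SD, n = 3). Olfactory bulb thus had the lower 5mC and the higher 5hmC at both. The 2 falls with more 5hmC in cerebellum were Zfp521, at 0.212 ± 0.0054 against 0.155 ± 0.00582, and Cacna1a, at 0.164 ± 0.0065 against 0.153 ± 0.00327 (SD, n = 3; limma, adjusted p = 3.1e-21 and 0.0491). The Cnksr3 window did not differ in 5hmC beyond its spread, at 0.150 against 0.151 (limma, adjusted p = 0.949).

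Along the genome, windows that gained more 5mC in cerebellum lost more 5hmC there. Over 2413 windows of 1 Mb, the differences in mean 5mC and in 5hmC had a Pearson's r of -0.768 and a Spearman's rank correlation of -0.739, as a description of windows that share the same libraries of each assay. The windows were cut into 5 groups by their 5mC difference. The lowest group, at a mean of -0.0172, had a mean 5hmC difference of -0.0165, with 344 windows lower and 33 higher in 5hmC of 483. Most of it was thus lower in 5hmC, but less often than the 93.2% of all windows, and not every window in it had lost 5mC. No counts with centred libraries are given for these groups. The highest group, at 0.0699, had -0.0814. Of the 35 windows with more 5hmC in cerebellum, 32 had less 5mC there, while 374 of all 2413 windows did.

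**Figure D3:**
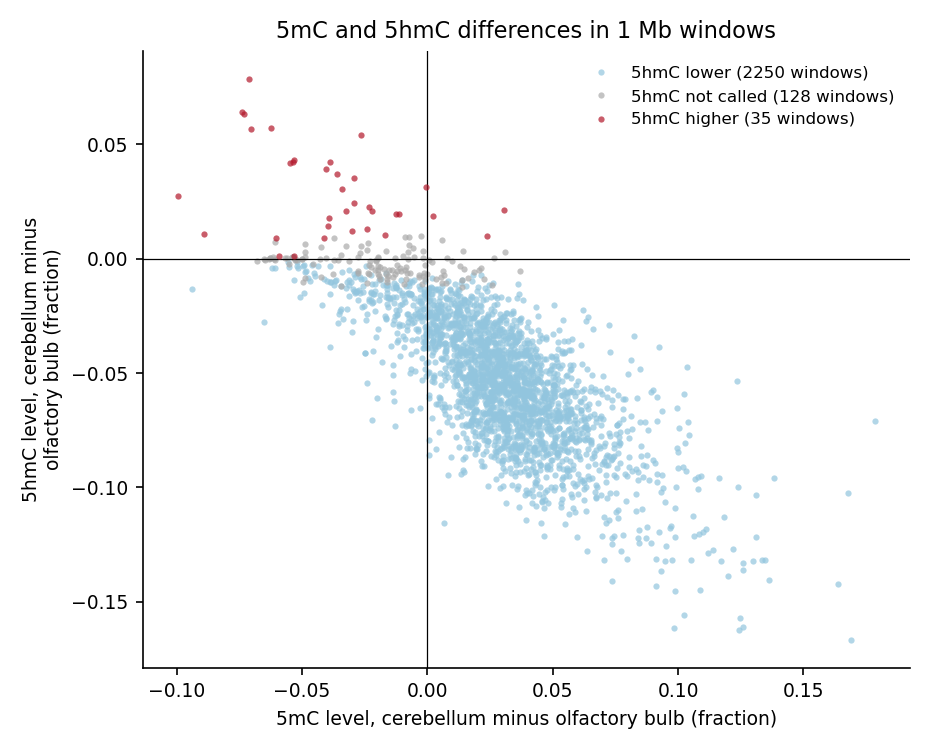
Difference in mean 5mC (x axis) and in 5hmC (y axis), cerebellum minus olfactory bulb (fractions), in 2413 autosomal windows of 1 Mb, coloured by the limma call on 5hmC. Windows with a larger 5mC rise had a larger 5hmC fall (Pearson's r of -0.768), and 32 of the 35 windows higher in 5hmC lie to the left of 0.

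Long genes were described by the mean level over the bins wholly inside them. There were 433 autosomal protein-coding genes with at least 3 such bins, with a median of 4. Of these, 298 (68.8%) were higher in 5mC in cerebellum and 47 (10.9%) lower, and with centred libraries 132 (30.5%) were higher and 201 (46.4%) lower. The median difference was 0.0468, above the 0.0275 of all bins and near the 0.0431 of all bins wholly inside genes.

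The 10 long genes that rose most did so by 0.186 to 0.249. Prkca, which encodes protein kinase C alpha, was at 0.758 and 0.739 in cerebellum and 0.496 and 0.503 in olfactory bulb. Grin2b, an NMDA receptor subunit that mature cerebellar granule neurons lose, was at 0.763 and 0.750 against 0.522 and 0.516. Auts2, a gene of brain development that spans more than 1 Mb, was at 0.743 and 0.719 against 0.540 and 0.515. All 3, chosen for the size of their rise, were higher in both cerebellum libraries without overlap.

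All 10 of the bins inside Auts2 passed the threshold as higher, with differences from 0.153 to 0.269, and the 2 bins at its ends rose by 0.136 and 0.176. The other genes were Lrrc7 (a postsynaptic density protein), Kalrn (a guanine nucleotide exchange factor of dendritic spines), Cdk14, Tanc2 (a synaptic scaffold), Myo16, Epha5 (an axon guidance receptor) and Prickle2 (a planar polarity protein). In all 10 genes every inner bin was called higher. Averaged over both sides, the 500 kb around these genes differed by 0.024 to 0.0682, with a median of 0.0405. The sides could be unequal, and the 6 bins before the start of Auts2 differed by 0.0829 to 0.133 against -0.0483 to 0.0301 in the 6 past its end.

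The 10 long genes that fell most did so by 0.121 to 0.239. Rbfox3 was first, at 0.258 and 0.251 in cerebellum against 0.506 and 0.480 in olfactory bulb, with all 4 inner bins lower, the furthest by a difference of -0.293, and a difference of 0.002 over its flanks. Caln1, which encodes a calcium-binding protein related to calmodulin, was at 0.598 and 0.582 against 0.755 and 0.768. Reln encodes the secreted guidance protein reelin, which granule neurons make, and was at 0.629 and 0.622 against 0.746 and 0.747. The groups did not overlap in any of the 3, which were chosen for the size of their fall.

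The others were Nedd4l, Rims1 (an active zone protein), Car10, Unc5c (a netrin receptor of granule neuron precursors), Kif26b, Cadps2 (a regulator of dense core vesicle release in granule neurons) and Megf11. Cadps2 was uneven, with 4 of 5 inner bins lower and the remaining bin at a difference of -0.0032. Averaged over both sides, the flanks of these 10 genes had differences from 0.002 to 0.0519.

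**Figure D4:**
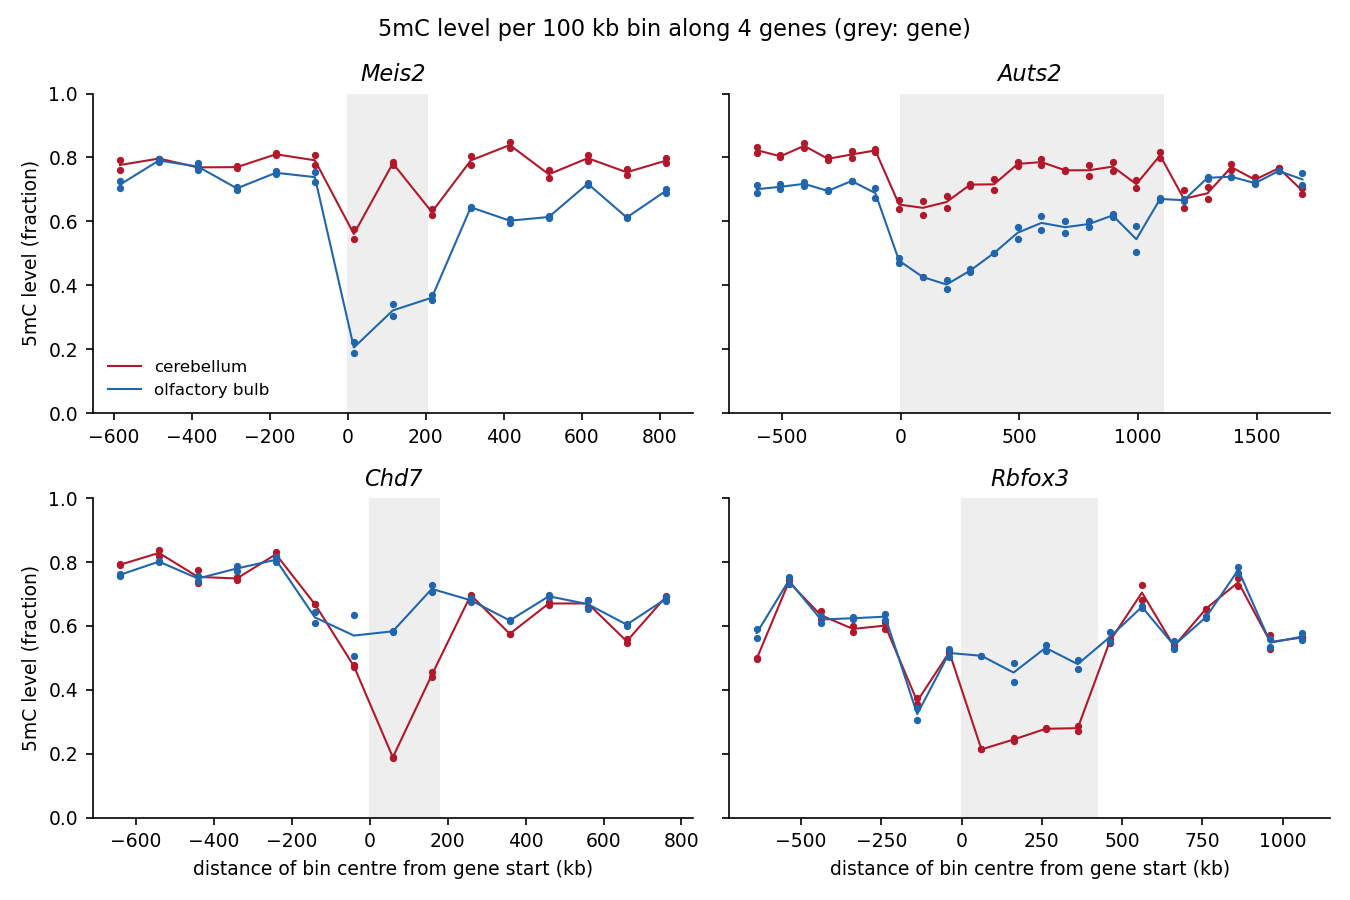
5mC level (fraction, y axis) of 100 kb bins by distance of the bin centre from the gene start (kb, x axis, in the direction of transcription) at Meis2, Auts2, Chd7 and Rbfox3. Points are libraries, lines are means of 2 libraries and grey marks the gene. Olfactory bulb is low inside Meis2 and Auts2, with a gap that runs on past the end of Meis2 (0.0798 to 0.237 in 6 bins) and before the start of Auts2, and cerebellum is low inside Chd7 and Rbfox3.

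Of the other loci drawn or named by the study, the bin inside Gsk3b, a kinase of Wnt signalling, rose by 0.142 from 0.433 in olfactory bulb to 0.575 in cerebellum. The 2 bins of Map3k1, a MAP kinase kinase kinase, rose from 0.553 to 0.653 and from 0.583 to 0.703. Of the 3 bins of Ebf3, a factor of neuronal differentiation, 1 was lower, at a difference of -0.0468, and the others, at -0.0150 and 0.0120, did not pass the threshold (limma, adjusted p = 0.493 and 0.633).

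Genes listed as markers of the cell types of both tissues were read at the bin that holds most of each gene, which for short genes is mostly sequence around them. Over all 20756 autosomal protein-coding genes read in this way, 27.4% were in a bin higher in cerebellum and 11.3% in a bin lower, with a median difference of 0.0134. Of 26 cerebellar granule neuron genes, 21 (80.8%) were lower, 1 higher (Barhl2) and 4 in neither direction, with a median difference of -0.0779. The falls included Chn2, Nfix (a nuclear factor I protein, from 0.436 to 0.175), Grin2c (the NMDA receptor subunit of mature granule neurons, from 0.548 to 0.334) and Fat2. Zic1 and Zic4, and likewise Zic2 and Zic5, share a bin, so the 26 genes stand for 24 bins.

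The olfactory bulb interneuron genes went the other way. Of 23 read, in 21 bins, 15 (65.2%) were higher in cerebellum and 2 lower, with a median difference of 0.118. Besides Meis2, Pbx3 and Tshz1, the bin of Dlx5 and Dlx6, homeobox genes of forebrain GABAergic neurons, was at 0.433 and 0.425 in cerebellum and 0.207 and 0.194 in olfactory bulb. The bin of Gad1, which encodes the enzyme that makes GABA, was at 0.625 and 0.588 against 0.426 and 0.378. The 2 lower genes were Six3, at a difference of -0.0757, and Calb2, at -0.0471, and the tyrosine hydroxylase gene Th did not pass the threshold, at 0.644 against 0.612. With centred libraries 14 genes of this list were higher and 5 lower, and 22 granule neuron genes were lower and 0 higher. Over all bins, 19.4% were higher and 23.7% lower in that setting. The 2 lower bulb genes became 1 without cerebellum replicate 2 or olfactory bulb replicate 2 and 0 without olfactory bulb replicate 1, and the 1 higher granule neuron gene became 0 without cerebellum replicate 1 or olfactory bulb replicate 2.

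The lists of the other cell types had medians nearer to 0, from 0.00319 to 0.0249. Their counts stand beside 27.4% higher and 11.3% lower among all protein-coding genes. Of 22 Purkinje cell genes, 11 were higher and 2 lower, Rora among them, and of 11 genes of other cerebellar neurons 4 were higher and 0 lower. Of 10 mitral and tufted cell genes 4 were higher and 1 lower, and of 9 genes of ensheathing cells and sensory axons 2 were higher and 0 lower. Among glial and vessel genes, 4 of 14 astrocyte and Bergmann glia genes and 1 of 15 oligodendrocyte genes (Mog, by 0.121) were higher, and of 13 microglia and vessel genes 4 were higher and 2 lower. The share that these cells take in each tissue was not measured.

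The balance of these counts changed with the scaling, as it did over all bins. With centred libraries 19.4% of all bins were higher and 23.7% lower, and no such share is given for all protein-coding genes. With centred libraries 5 Purkinje cell genes were higher and 8 lower, and of the other cerebellar neuron genes 3 were higher and 2 lower. The mitral and tufted cell list then had 2 higher and 4 lower genes, and the ensheathing cell list 2 and 3. The oligodendrocyte list had 1 higher and 7 lower, the microglia and vessel list 2 and 5, and the astrocyte list 2 in each direction. Single libraries also moved them. Without either olfactory bulb replicate, 7 Purkinje cell genes were higher, and without cerebellum replicate 2 or olfactory bulb replicate 1 only 1 was lower. Without cerebellum replicate 1 or olfactory bulb replicate 2, 2 astrocyte genes were higher, and without cerebellum replicate 2 or olfactory bulb replicate 2, 2 mitral and tufted cell genes were. The lower microglia and vessel genes were 0 without cerebellum replicate 2 or olfactory bulb replicate 1 and 1 without olfactory bulb replicate 2. The 1 lower mitral and tufted cell gene became 2 without cerebellum replicate 1 and 0 without either olfactory bulb replicate.

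Regional transcription factors were mixed. Of 24 forebrain factors 8 (33.3%) were higher in cerebellum and 3 (12.5%) lower, beside 27.4% and 11.3% of all protein-coding genes. Among them, Bcl11b was at 0.672 and 0.652 against 0.415 and 0.411, and Emx2, Six3 and Pax6 were lower. Of 25 midbrain and hindbrain factors 10 were higher and 3 lower. The higher ones included En1 and En2, engrailed genes that pattern the hindbrain, by 0.0729 and 0.0551, and the lower ones were Zic1, Zic4 and Meis1. With centred libraries the forebrain list had 7 higher and 10 lower and the midbrain and hindbrain list had 2 and 3, beside 19.4% and 23.7% of all bins. The midbrain and hindbrain list had 3 higher genes without cerebellum replicate 1 or olfactory bulb replicate 2. Its lower genes became 0 without olfactory bulb replicate 1 and 2 without either cerebellum replicate. The lower forebrain factors were 5 without cerebellum replicate 1 and 1 without olfactory bulb replicate 1.

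Genes of synapses were more often in higher than in lower bins, as was genic sequence in general. Of all bins wholly inside genes, 59.3% were higher and 9.53% lower. Of 35 synaptic adhesion and organizer genes 25 (71.4%) were higher and 1 lower, with a median of 0.0465. Among all protein-coding genes 27.4% were higher, and among the long genes, read as a mean over several bins, 68.8% were. The largest rises were in Nrxn3, by 0.245, and in the Down syndrome cell adhesion genes Dscaml1 and Dscam, by 0.203 and 0.196. With centred libraries 14 of these genes were higher and 5 lower, beside 19.4% and 23.7% of all bins. Of 35 glutamate and GABA receptor genes 20 were higher and 8 lower, and with centred libraries 16 and 12. The AMPA receptor gene Gria1 was at 0.755 and 0.749 in cerebellum against 0.519 and 0.482 in olfactory bulb. The lower genes included Grm4 and Gabra6, receptors of granule neurons, and Gabrd, Grin2c, Gabrb2 and Gabbr2. Grm4 was at 0.339 and 0.325 against 0.599 and 0.575.

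Of 15 genes of DNA methylation and oxidation 4 (26.7%) were higher and 0 lower, beside 27.4% and 11.3% of all protein-coding genes. With centred libraries 1 was higher and 8 lower, beside 19.4% and 23.7% of all bins. Without olfactory bulb replicate 2, 2 were higher. Mbd2, which encodes a methyl-CpG binding protein, was in a bin at 0.723 and 0.703 against 0.561 and 0.551. The other 3 were Dnmt1, Tet2 and Zbtb38, with rises from 0.0556 to 0.0765. Tet1 and Tet3, at 0.0241 and -0.00828, and Dnmt3a, at -0.00644, did not pass the threshold.

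**Figure D5:**
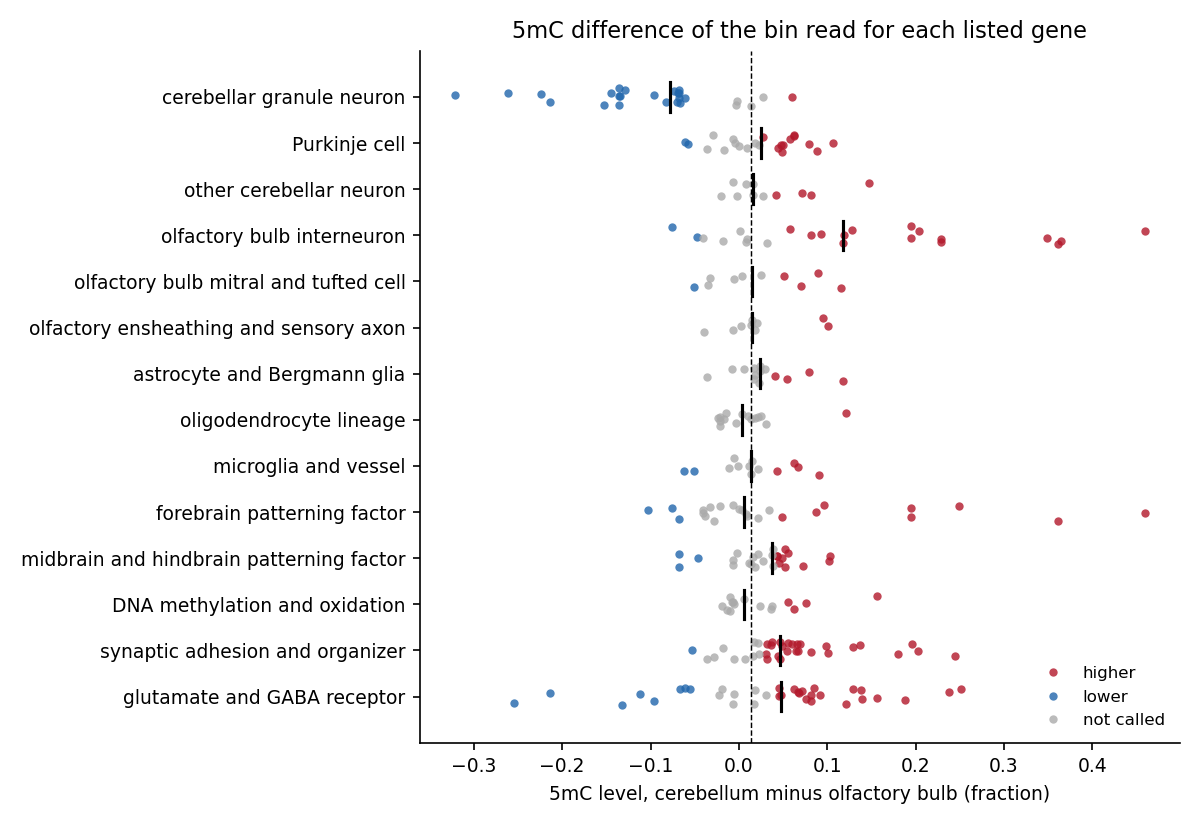
Difference in 5mC level (cerebellum minus olfactory bulb, fraction, x axis) of the bin read for each gene of 14 lists, 1 point per gene, coloured by the limma call, with the list median as a black bar and the median of all protein-coding genes (0.0134) as a dashed line. The granule neuron list lies mostly to the left and the olfactory bulb interneuron list mostly to the right.

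Called bins often stood in runs. The 10381 higher bins formed 3766 runs of neighbours, of which 573 had at least 5 bins and held 47.1% of the higher bins. The 1823 lower bins formed 882 runs, of which 67 had at least 5 bins and held 31.9%. The 2 longest higher runs spanned 33 bins each. The first, chr8:48200001-51500000, held Tenm3, a teneurin of synaptic partner matching, as its only protein-coding gene, at 0.803 and 0.788 in cerebellum against 0.708 and 0.696 in olfactory bulb. The second, chr16:59400001-62700000, held the ephrin receptor gene Epha6 and 4 other genes, with a mean difference of 0.0805. The third, of 28 bins on chromosome 3, held Pdgfc, Gria2, Glrb and 8 more genes and rose by 0.0734.

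The longest lower runs lay over clusters of repeated gene families. The first, chr17:17900001-20900000, had 30 bins with formyl peptide receptor and vomeronasal type 2 receptor genes, at 0.695 and 0.678 in cerebellum against 0.748 and 0.752 in olfactory bulb. The second, chr17:37300001-40200000, had 29 bins, 52 protein-coding genes and many olfactory receptor genes, with a mean difference of -0.0499. The third, chr7:13400001-15800000, had 24 bins with Obox homeobox and Sult2a sulfotransferase genes and a mean difference of -0.0626. Reads of near-identical copies in such clusters may be shared or lost in unique mapping, so the levels there are uncertain.

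Receptor families were then counted over the genome, a choice made after these runs were seen. Over all bins, 43.2% were higher and 7.59% lower. Of 43 bins with at least 3 vomeronasal receptor genes, 24 (55.8%) were lower and 0 higher, with a mean of 0.731 ± 0.0106 in cerebellum and 0.763 ± 0.00121 in olfactory bulb (SD, n = 2). Of 233 bins with at least 3 olfactory receptor genes, 55 (23.6%) were lower and 7 higher, with a mean difference of -0.0123. These counts include the bins of the runs that prompted them, so they describe the same data again. Of 33 bins of Zfp genes 3 (9.09%) were higher and 0 lower, and of 9 bins of clustered protocadherins 1 (11.1%) was higher and 0 lower. Both shares of higher bins were below the 43.2% of all bins, and no difference between families was tested.

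The resolution of 100 kb mattered. Of the variance of the difference over bins, 61.3% lay within windows of 1 Mb. Of the 2413 windows, 570 held bins called in both directions. When the bins of a window were averaged, 1516 windows were higher and 160 lower. Of the 737 that passed in neither direction 674 held at least 1 called bin and 372 held bins of both directions. With 43.2% of all bins higher and 7.59% lower, most windows would hold a called bin in any case. The correlation of the difference between bins fell from a Pearson's r of 0.568 at a distance of 100 kb to 0.375 at 200 kb and 0.136 at 1000 kb.

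The window chr11:32000001-33000000 shows this. Its mean difference was -0.00114 (limma, adjusted p = 0.942). Within it, the bin of Nsg2, a neuronal endosomal protein, rose from 0.462 ± 0.0213 in olfactory bulb to 0.685 ± 0.0162 in cerebellum, and the bin shared by Fbxw11 and Stk10 fell from 0.608 ± 0.0227 to 0.392 ± 0.0312 (SD, n = 2). In the window of Sv2b, the bin of Akap13 rose by 0.103. In a window on chromosome 3, the bin of Dclk1, a doublecortin-like kinase, rose by 0.266 while the bin of Nbea and Mab21l1 fell by 0.154.

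Grouped by their genes, the bins without a gene had the highest level in both tissues. Bins wholly inside genes (4230) had a mean of 0.737 in cerebellum and 0.695 in olfactory bulb, and bins without a gene (3312) had 0.796 and 0.767. Bins partly covered by genes (16473) had 0.718 and 0.695. Of the bins wholly inside genes 59.3% were higher and 9.53% lower, against 46.7% and 1.54% of the bins without a gene. The partly covered bins rose least, with 38.4% higher and 8.31% lower. Their mean difference was 0.0235, against 0.0414 wholly inside genes and 0.0295 without a gene, so the rise did not grow steadily with gene cover. Wholly genic minus geneless, the gap was -0.0585 and -0.0596 in the cerebellum libraries and -0.0681 and -0.0740 in the olfactory bulb libraries. It was thus narrower in cerebellum by 0.0120, with no overlap and with p = 0.333 in a two-sided exact permutation test, the smallest value possible.

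Chromosome 7 rose least, with a mean difference of 0.00582 and 22.4% of 1421 bins lower, and chromosome 18 rose most, with 0.0386 and 4.1% of 877 bins lower. Of 5 groups of bins cut by their number of CpG sites, the group with most sites had the smallest mean difference, 0.0191 against 0.0252 to 0.0327.

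Low levels were sometimes shared by the tissues. Below 0.5 lay 270 bins in all 4 libraries, 196 in both cerebellum libraries alone and 185 in both olfactory bulb libraries alone, while 22986 were at or above it in all 4. Of the 10 bins with the lowest levels in both tissues, 5 lay in Hox clusters, the homeobox genes that pattern the body axis. The lowest held Hoxc5 to Hoxc13, at 0.0679 and 0.0713 in cerebellum against 0.0890 and 0.0699 in olfactory bulb, which overlap. The bin of Hoxa3 to Hoxa13 was at 0.146 and 0.139 against 0.139 and 0.124. The cortex mean was below 0.5 in 48 of the 196 bins low in cerebellum alone and in 95 of the 185 low in olfactory bulb alone.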

How the data were processed

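The authors mapped oxBS-seq and TAB-seq reads uniquely to mm10 with Bismark (version not given in the sources used here), tested CpG sites with a binomial model and deposited, per library, the level of each bin as a fraction from 0 to 1, in bins of 100 kb for 5mC and 1 Mb for 5hmC. The deposited fractions carry no read counts, so the depth is unknown, no counting interval can be given, and errors are SDs between libraries. How sites were combined within a bin is not stated in the sources used here. The labels name no sequencing batch.

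Bins, levels and groups were taken as labelled. limma 3.58.1 in R 4.3.3 was fitted to log2(level/(1 − level)) of the 4 libraries over all members, with Benjamini-Hochberg adjustment, and likewise over 433 long genes and, for 5hmC, over 2413 bins of 6 TAB-seq libraries. Its residual variance was pooled to 1 value over all bins. Data were simulated with 24015 bins of equal spread, of which 200 were changed. A change of 0.5 was found in 76% of changed bins, of 0.2 in 0.5% and of 1 in 100%. In the real data far more bins passed, which makes the adjustment less strict, so these rates do not describe it. p-values measure the spread between these libraries only. Genes came from GENCODE M21, CpG sites from GRCm38, and Python 3.11.15, pandas 2.3.3, scipy 1.17.1 and matplotlib 3.10.9 were used.

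The members and lists were chosen with earlier results of these data known. Named were the 15 bins and 10 long genes with the largest rise and fall past an adjusted p-value of 0.05 (for bins also with no overlap of libraries), the 3 longest runs per direction, the 5 windows of 1 Mb with the widest range (Zeb2, Nsg2, Chd7, Sv2b and Dclk1), listed genes with the largest differences, and 4 loci of the study. Further list members, the receptor families and the bins low in both tissues were named after their values were seen. The alternatives were the median, the X chromosome, no filter on levels, at least 500 CpG sites, protein-coding genes only, the fraction scale, centred libraries, 7 libraries in 1 fit, limma's trend and robust options, windows of 1 Mb, a minimum difference, leaving out each library, and a block for the replicate number. RNA-seq was not analysed here, and some of the named bins and genes are not reported here.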

Additional observations from a re-analysis of the deposited data

How the results depend on the processing

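The difference in genome mean was not computed with centred libraries, which set each library's median alike. It stayed positive for the median (0.0314), with the X chromosome (0.0242), without a filter on levels and with at least 500 CpG sites, and it ran from 0.0193 to 0.0356 when 1 library was left out. The narrower gap between genic and geneless bins stayed positive too, from 0.0118 to 0.0144 and, without 1 library, from 0.00901 to 0.0149. Leaving out 1 library, with the lone sample assumed to vary like the other tissue, gave 6980 to 11912 higher and 1271 to 1972 lower bins, 263 to 343 higher and 36 to 62 lower long genes, and 2222 to 2256 lower and 28 to 48 higher 5hmC bins.

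Centring moved each of these counts by over 1.5 times. It gave 4649 higher and 5695 lower bins against 10381 and 1823, 132 higher and 201 lower long genes against 298 and 47, and 982 lower and 1183 higher 5hmC bins against 2250 and 35. Without a filter on levels 6744 bins were higher and 1187 lower, and the cause was not tested. Windows of 1 Mb, fewer by construction, gave 1516 higher and 160 lower, and asking for a difference of at least 0.05 left 6361 higher bins. The other settings kept each count within 1.5 times. With the replicate number as a block, 10964 bins were higher and 1951 lower, 309 long genes higher and 49 lower, and the block changed no direction. The difference between replicates 1 and 2 in cerebellum and that in olfactory bulb correlated at 0.0249 over 24015 bins. The replicate numbers were therefore not taken to pair the libraries. They are those of the sample titles. The deposited library names number the cerebellum libraries 2 and 4 and the olfactory bulb libraries 3 and 4, so by those names only the second replicates share a number. All 30 named bins and 20 named long genes kept their direction and stayed past the threshold in each of the up to 12 settings in which they could be tested. They had been chosen as the largest differences of the same libraries, so their stability is no independent check.

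In settings added after seeing the data, the granule neuron list had 16 to 22 lower genes and the olfactory bulb interneuron list 14 to 15 higher genes. Depth could not be judged, since the fractions carry no counts.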

Other observations

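The X chromosome, left out of the comparison, went the other way. Over 1660 bins of 100 kb its mean 5mC level was 0.724 and 0.710 in the cerebellum libraries and 0.740 and 0.738 in the olfactory bulb libraries. Both cerebellum libraries were thus below both olfactory bulb libraries, at 0.717 ± 0.00976 against 0.739 ± 0.000937 (SD, n = 2), a difference of -0.0221 where the autosomes rose by 0.0275. The difference between X and autosomes was not tested.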
